A study of Mus musculus with 4 samples.

Results

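Solute carriers are membrane proteins that move amino acids, sugars, ions, vitamins and metabolites across the plasma membrane, synaptic vesicles, mitochondria and other organelles. The genes described here were taken by name: every probe set with 1 gene symbol in the platform annotation, beginning with Slc and a digit. This gave 151 of 8251 genes, read by 185 of 12422 probe sets. The rule used no measured value. The symbol prefix also takes in 3 genes whose products bind carriers rather than carry solutes (Slc4a1ap, Slc9a3r1 and Slc9a3r2), and they are kept and named as such.

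The arrays measured RNA from prefrontal cortex, the front part of the cerebral cortex, of female mice. The control group was the FVB/N strain, and the transgenic group overexpressed human synaptic AChE, the acetylcholinesterase that splits acetylcholine at synapses. Each of the 4 arrays (2 per group) carried a pool of RNA from 4 mice. The labels give no age, no promoter or copy number for the transgene, no strain for the transgenic mice, and no word on whether mice were shared between the pools of a group. P-values therefore measure the spread between these pools, which may be technical, and a strain or batch difference cannot be told apart from the transgene.

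In the brain, carriers clear transmitters such as glutamate, GABA and the monoamines from the synaptic cleft. Members of the Slc1 and Slc6 families take them back into astrocytes and neurons, and Slc32a1 loads GABA and glycine into vesicles. The cation-chloride carriers of the Slc12 family set the chloride gradient on which GABA receptors depend. Bicarbonate carriers (Slc4) and exchangers of sodium for calcium (Slc8) or protons (Slc9) hold ion concentrations and pH, and glucose reaches the tissue through Slc2 carriers of the vessel wall and neurons. The mitochondrial carriers (Slc25) exchange nucleotides, acids and phosphate across the inner mitochondrial membrane.

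Intensities are in arbitrary units on a linear scale, scaled alike for each array, and levels of different probe sets cannot be set against each other. Probe set names that end in _f_at, _i_at, _r_at or _s_at, rather than plain _at, mark probes chosen under relaxed rules or able to match related sequences. In bulk tissue, fewer cells of a type and less RNA per cell cannot be told apart. Values were floored at an intensity of 19.675 and compared on the log2 scale. Of the 185 probe sets, 114 (102 genes) were bright enough to be tested and 71 were not. Correlations of log2 intensity were 0.982 and 0.983 between pools of a group and 0.958 to 0.961 between groups. The 7 neuronal marker genes read by the arrays were all bright enough to be tested. Snap25 read between 6878 and 9424.2, and Nefl only between 92.9 and 175.8. Of the 4 choroid plexus markers read by the arrays, 0 were bright enough to be tested.

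A small set of carriers differed between the groups. Higher in the transgenic pools were the sodium bicarbonate cotransporter Slc4a4, the sodium-calcium exchanger Slc8a1 and the zinc importer Slc39a6. Lower were the mitochondrial dicarboxylate carrier Slc25a10, the neuronal chloride exporter Slc12a5, the peroxisomal cofactor carrier Slc25a17, the vitamin carrier Slc5a6, the zinc importer Slc39a1, the hexose carrier Slc2a8 and the sugar carrier Slc50a1. That is 10 of 114 tested probe sets (8.77%) at an adjusted p under 0.05 in limma, against 10.0% of all 7453 tested probe sets. In one direction, the background was 5.46% for higher and 4.56% for lower signal. The share of carriers that passed was thus near that of all probe sets, and is not a result about carriers as a group. At an unadjusted p under 0.05 there were 23 of 114, with 24.3% as the background. The groups of arrays did not overlap for 63 of 114 (55.3%), 21 higher and 42 lower, with 53.7% as the background. The median log2 change was -0.12 over the tested carriers and -0.03 over all tested probe sets, and 62.3% and 54.2% of changes lay below 0. Without the filter on dim probe sets 0 of 185 carrier probe sets passed, with 28 at an unadjusted p under 0.05, and 48 of all 12422 did. Without the intensity trend 4 carriers passed (Slc4a4, Slc8a1, Slc12a5 and Slc25a10), and leaving out control replicate 1, control replicate 2, transgenic replicate 1 or transgenic replicate 2 gave 6, 12, 6 and 2. Each of these 4 fits leaves 1 array in a group, which is assumed to vary like the pair of the other group, and this holds for every value below given without a pool.

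**Figure D1:**
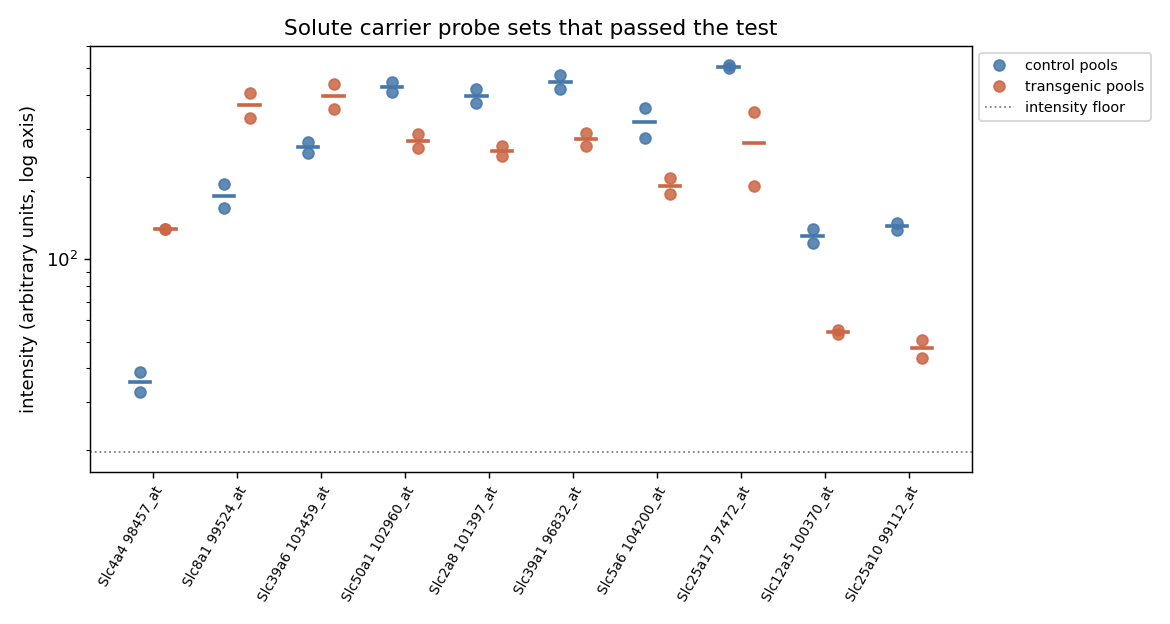
Intensity on each array (log axis, arbitrary units) for the 10 solute carrier probe sets that passed, ordered by log2 change from Slc4a4 to Slc25a10. Points are pools, short lines are group means and the dotted line is the intensity floor of 19.675. In every pair the 2 transgenic points lie on one side of the 2 control points, and the transgenic points of Slc25a17 lie far apart (345.9 and 185.3).

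Of the genes that passed, 4 changed by more than 1 on the log2 scale: Slc4a4, Slc8a1, Slc12a5 and Slc25a10. The 250 bases before each RefSeq transcription start of these genes (assembly GRCm38.p6) are printed to show what kind of promoter each has. Capitals mark the GC box GGGCGG, a site type bound by Sp1, and the E-box CACGTG, each on either strand. All sequences run 5′ to 3′ on the gene's strand. Slc4a4 has 2 listed starts, at chr5:88887010-88887259 and chr5:89027716-89027965, both on the plus strand. Slc8a1 has 1 (chr17:81738388-81738637, minus strand). Slc12a5 has 2 (chr2:164960596-164960845 and chr2:164967738-164967987, plus strand), and Slc25a10 has 1 (chr11:120491587-120491836, plus strand).
Slc4a4, start 1: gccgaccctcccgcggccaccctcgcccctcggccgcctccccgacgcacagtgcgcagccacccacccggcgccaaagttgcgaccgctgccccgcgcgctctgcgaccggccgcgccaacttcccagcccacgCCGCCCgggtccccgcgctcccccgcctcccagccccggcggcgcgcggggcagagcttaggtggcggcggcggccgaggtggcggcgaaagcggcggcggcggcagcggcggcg
Slc4a4, start 2: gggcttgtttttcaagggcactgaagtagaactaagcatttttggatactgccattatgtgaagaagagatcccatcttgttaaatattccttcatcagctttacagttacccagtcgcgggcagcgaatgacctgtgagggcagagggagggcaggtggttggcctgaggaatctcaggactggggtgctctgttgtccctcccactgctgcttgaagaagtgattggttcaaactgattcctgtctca
Slc8a1, start 1: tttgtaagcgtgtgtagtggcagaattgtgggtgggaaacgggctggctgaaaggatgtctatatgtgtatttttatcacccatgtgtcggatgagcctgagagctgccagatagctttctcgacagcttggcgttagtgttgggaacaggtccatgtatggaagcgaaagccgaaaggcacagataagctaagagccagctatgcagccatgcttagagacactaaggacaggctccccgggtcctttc
Slc12a5, start 1: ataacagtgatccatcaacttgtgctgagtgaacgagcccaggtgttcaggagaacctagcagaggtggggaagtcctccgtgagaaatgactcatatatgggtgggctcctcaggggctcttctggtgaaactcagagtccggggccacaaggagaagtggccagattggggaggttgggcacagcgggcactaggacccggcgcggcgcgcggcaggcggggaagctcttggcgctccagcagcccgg
Slc12a5, start 2: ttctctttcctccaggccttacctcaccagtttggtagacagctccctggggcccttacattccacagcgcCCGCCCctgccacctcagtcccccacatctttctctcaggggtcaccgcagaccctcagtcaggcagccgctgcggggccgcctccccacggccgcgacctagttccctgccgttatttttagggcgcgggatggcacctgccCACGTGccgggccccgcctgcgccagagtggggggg
Slc25a10, start 1: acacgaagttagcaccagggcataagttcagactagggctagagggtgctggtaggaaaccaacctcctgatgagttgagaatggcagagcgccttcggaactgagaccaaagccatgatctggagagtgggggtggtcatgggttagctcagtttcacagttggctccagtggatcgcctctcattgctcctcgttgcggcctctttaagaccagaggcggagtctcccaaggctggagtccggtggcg

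The 2 starts of Slc4a4 differ most. The window at the first start holds 44 CG dinucleotides, a number that 0.539% of the 32851 promoter windows in the RefSeq table reach or exceed, and 1 GC box. That of the second start holds 3 CG dinucleotides, at a median over all windows of 6, and 0 GC boxes. Slc8a1 holds 8 and Slc25a10 holds 9, with 0 matches to either motif. The first Slc12a5 window holds 13, and the second holds 16 with 1 GC box and 1 E-box. Over all windows, 32.7% hold the GC box and 6.02% the E-box. The cAMP response element TGACGTCA, present in 1.55% of all windows, was in 0 of these 6. The array does not tell which start was used, and a match of letters is not a binding site.

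Tested glutamate carriers of the Slc1 family gave no call. Slc1a3, a further glutamate carrier of astrocytes, had no probe set among the carriers taken by name. Slc1a2, the main glutamate carrier of astrocytes, read 143.2 and 167.3 in control pools and 151.5 and 154.9 in transgenic ones. The groups overlapped, and the log2 change was -0.01 ± 0.19 (SE, adjusted p = 0.977, 95% interval -0.45 to 0.42). The neuronal glutamate carrier Slc1a1 read 223.2 and 246.1 against 251.1 and 305.6 at 104747_at, a log2 change of 0.24 ± 0.18 (adjusted p = 0.452). Its second probe set, 104748_s_at, was too dim to be tested and read 40.9 and 34.7 against 10.7 and 20.9, so the probe sets pointed in opposite directions. The neutral amino acid carrier Slc1a4 spanned 580.6 to 750.4 in control and 494.4 to 748.7 in transgenic pools, with a log2 change of -0.12 ± 0.21. Slc1a6, a glutamate carrier best known from Purkinje cells, had 0.27 ± 0.30. In all, 0 of 4 tested probe sets of the family passed, and 0 had an unadjusted p under 0.05.

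Carriers for inhibitory and amine transmitters also gave no call. Slc32a1, which fills inhibitory vesicles, read 2389.8 and 2692.5 in control and 3044.3 and 2376.4 in transgenic pools. Its groups overlapped, and its log2 change of 0.08 ± 0.14 had a 95% interval of -0.23 to 0.39 (adjusted p = 0.766). Of 7 interneuron markers, a list that holds Slc32a1, 2 fell and 0 rose (28.6%, against 10.0% of all tested probe sets). Npy fell by 0.71 and Sst by 0.56 on the log2 scale. Among those that did not pass, Gad1 had 0.33 ± 0.11, Pvalb 0.03 ± 0.13, Vip -0.44 ± 0.23 and Gad2 -0.54 ± 0.48. Slc6a9, the glycine carrier of glia, read 839 and 780.7 against 764.5 and 755.3, a log2 change of -0.09 ± 0.13 with an interval of -0.38 to 0.20. The GABA and taurine carrier Slc6a13 read 312.2 and 294.2 against 341.2 and 364.6 (0.22 ± 0.15), and the creatine carrier Slc6a8 had 0.22 ± 0.16. The amino acid carrier Slc6a15 had 0.18 ± 0.15, and the taurine carrier Slc6a6 had -0.21 ± 0.13. Slc6a20b had -0.29 ± 0.19, and the neutral amino acid carrier Slc6a18 had -0.37 ± 0.37. The serotonin carrier Slc6a4 had -0.13 ± 0.30 at 161695_f_at. Second probe sets of Slc6a4 and Slc6a8 were too dim to be tested, with 12.3 to 27.4 and 3.1 to 5.3 over the arrays. Of 10 tested probe sets in the Slc6 family 5 had changes above 0 and 5 below, and 0 passed or had an unadjusted p under 0.05.

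The noradrenaline carrier Slc6a2 had the widest error of these. At 99409_at it read 37.1 and 34.7 in control pools but 38 and 157.6 in transgenic ones. At 99408_at it read 22.5 and 60 against 81.3 and 57.1. The log2 changes were 1.11 ± 0.57 and 0.89 ± 0.48 (adjusted p = 0.277 and 0.298), and the high reading of transgenic replicate 2 at one probe set was not matched at the other. Both control readings of the first lay under the brightness needed for testing (49.4), so it was tested only through that 1 reading. Without transgenic replicate 1 the reading of 157.6 stands alone in its group, with an adjusted p of 0.0250 that rests on the spread of the control pools.

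**Figure D2:**
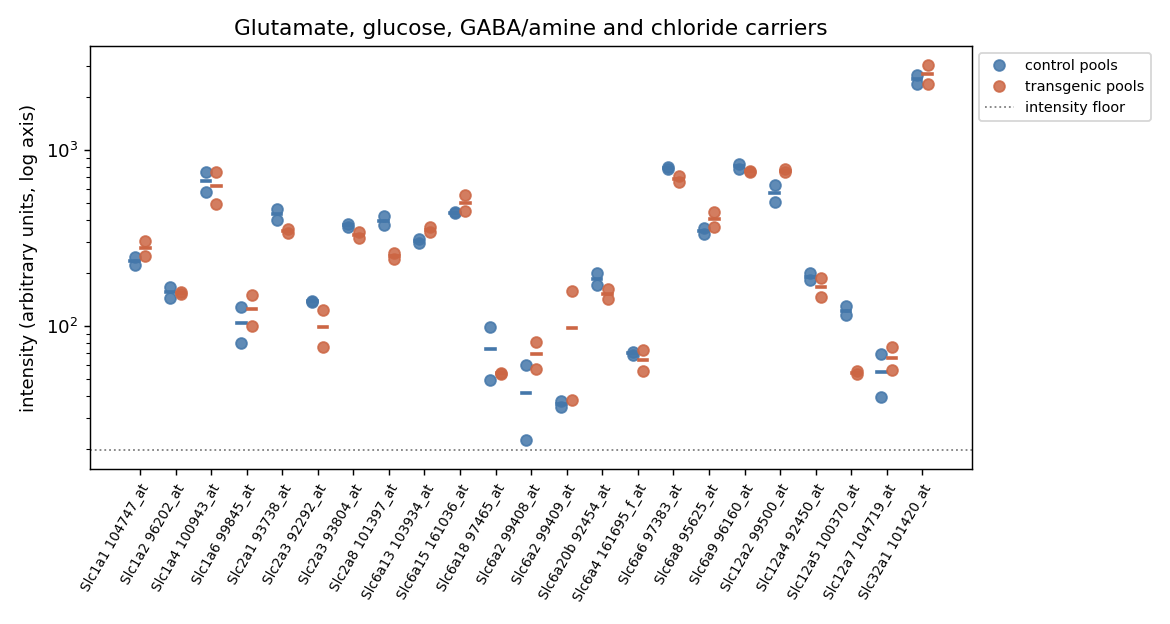
Intensity on each array (log axis, arbitrary units) for the tested glutamate (Slc1), glucose (Slc2), GABA, glycine and amine (Slc6), cation-chloride (Slc12) and vesicular (Slc32) carriers. Points are pools and short lines are group means. Slc12a5 and Slc2a8 are the 2 that passed, and the single high transgenic point of Slc6a2 at 99409_at reads 157.6.

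Among cation-chloride carriers, the neuronal chloride exporter Slc12a5 fell, and the other tested members did not pass. Slc12a5, also called KCC2, keeps chloride low in mature neurons. It read 129.3 and 114.6 in control pools and 53.3 and 55.1 in transgenic ones. Both transgenic values lay below both control values, and the gene fell 2.25-fold (log2 change -1.17 ± 0.26, adjusted p = 0.0196). Its transgenic level lay only just above the brightness needed for testing (49.4). Slc12a2, also called NKCC1, which brings chloride in, read 509.8 and 634.5 against 748.6 and 777.7. Its groups did not overlap, and its log2 change of 0.42 ± 0.15 had an adjusted p of 0.111. The potassium-chloride carriers Slc12a4 and Slc12a7 had -0.20 ± 0.20 and 0.32 ± 0.37 and did not pass. The call for Slc12a5 was lost without control replicate 1 (adjusted p = 0.0834), transgenic replicate 1 (0.0719) or transgenic replicate 2 (0.0739), and Slc12a2 had 0.0495 without control replicate 2, the higher of its control pools.

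Of 7 neuronal marker genes 1 passed (14.3%, against 10.0% of all tested probe sets): Snap25 fell by 0.37 on the log2 scale. The median log2 change of the list was -0.35, but Tubb3 had -0.08, Nefl had 0.28, and Syt1 read 524.2 and 1691.1 in the transgenic pools. The summed intensity of the 7 was 23754 and 23084 in control and 18476 and 20354 in transgenic pools, a sum to which Snap25 alone gave 9424.2 in control replicate 1. Of the 7 genes, 0 lay at or under the floor on all arrays. Of 5 markers of cortical projection neurons, Neurod2 rose by 2.07 and Camk2a fell by 1.54. The part of these markers in the fall of Slc12a5 was not tested.

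Slc4a4 had the largest rise among tested carriers, and it alone passed of 4 tested probe sets in the bicarbonate family. Slc4a4, also called NBCe1, moves sodium with bicarbonate and in the cortex is known from astrocytes. It read 38.6 and 32.6 in control and 128.7 and 128.8 in transgenic pools. The transgenic pools gave nearly the same value, and the gene rose 3.63-fold (log2 change 1.86 ± 0.29, adjusted p = 0.00282). Its control level lay under the brightness needed for testing (49.4), so it was tested only because of its transgenic level. The anion exchangers Slc4a2 and Slc4a3, which trade chloride for bicarbonate, had -0.38 ± 0.20 and -0.14 ± 0.12 and did not pass. Slc4a3 read 2118.7 and 2088.2 against 2081.3 and 1754.1, and most of the difference lay in transgenic replicate 2. Slc4a1ap, an adaptor protein, had 0.15 ± 0.21. Slc4a1, the anion exchanger of red blood cells, was too dim to be tested and read 48.9 and 49.5 against 26.1 and 41.6, whereas the haemoglobin gene Hba-a1 rose 2.99-fold on the same arrays (adjusted p = 3.27e-05). The astrocyte markers had summed intensities of 8061 and 8511.4 against 7424 and 8123, which overlap, a sum to which Aldoc alone gave 3797.3 in control replicate 1. Of the 8 markers 1 rose and 1 fell (25%, against 10.0% of all tested probe sets). Aqp4 rose (36.7 and 47.5 against 424.3 and 684.5) and S100b fell. Both control readings of Aqp4 lay under the brightness needed for testing, so it was tested only because of its transgenic level. The median log2 change of the list was -0.35. The part of the astrocyte markers in the rise of Slc4a4 was not tested.

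Slc8a1 (NCX1), which exports calcium in exchange for sodium, rose 2.14-fold at 99524_at. It read 154.1 and 187.8 in control and 328.1 and 405.5 in transgenic pools, with a log2 change of 1.10 ± 0.19 (adjusted p = 0.00502). The lower transgenic pool lay well above the higher control pool. The other probe sets of the gene were too dim to be tested: 93168_at read 20.3 and 22.3 against 20.2 and 26.5, and 99525_at read 6.9 and 34.6 against 13.1 and 15.1. The rise therefore rests on 1 of 3 probe sets, and without transgenic replicate 2 its adjusted p was 0.0751. Sodium-proton exchangers set the pH of cells and organelles, and Slc9a8, the only one tested, had -0.32 ± 0.18. Of the 3 tested probe sets with an Slc9 symbol 0 passed, and those other than Slc9a8 read scaffold proteins. The scaffold protein Slc9a3r1 (NHERF1) read 554.7 and 552.7 against 808.2 and 693.6, a log2 change of 0.44 ± 0.14 (adjusted p = 0.0843), and Slc9a3r2 had -0.16 ± 0.22.

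In the glucose family 1 of 4 tested probe sets passed, that of Slc2a8. Slc2a8 (GLUT8), a hexose carrier of internal membranes, read 419.2 and 372.6 in control and 259.8 and 239.3 in transgenic pools. It fell 1.59-fold (log2 change -0.66 ± 0.16, adjusted p = 0.0281). Slc2a1 (GLUT1), the glucose carrier of the blood-brain barrier and of astrocytes, read 398.8 and 463.8 against 357.5 and 337.2. Its log2 change was -0.31 ± 0.15 (adjusted p = 0.260). Slc2a3 (GLUT3), the neuronal glucose carrier, had -0.52 ± 0.27 at 92292_at and -0.18 ± 0.15 at 93804_at, and neither passed. The 4 probe sets read 3 genes, and all were lower in both transgenic pools than in either control pool, as were 29.9% of all tested probe sets. Their median log2 change was -0.41 (-0.03 over all tested probe sets), and it was -0.43 and -0.44 with median scaling and quantile normalization. A second Slc2a8 probe set read 7.8 or less on every array.

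Slc50a1 and Slc5a6 fell as well. Slc50a1 (SWEET1), a sugar carrier, read 443.3 and 410.2 in control and 286.2 and 255.9 in transgenic pools, a 1.58-fold fall (log2 change -0.66 ± 0.16, adjusted p = 0.0273). Slc5a6, which takes up biotin and pantothenate, read 358.7 and 277.7 against 172.5 and 198.1 and fell 1.71-fold (log2 change -0.77 ± 0.19, adjusted p = 0.0307). The glucose-6-phosphate carrier Slc37a4 had -0.56 ± 0.20 (adjusted p = 0.122). Without control replicate 1, transgenic replicate 1 or transgenic replicate 2, the adjusted p was 0.131, 0.0790 and 0.135 for Slc2a8. It was 0.0987, 0.0667 and 0.134 for Slc50a1, and 0.176, 0.145 and 0.0987 for Slc5a6. Slc37a4 passed without control replicate 1 (0.0324).

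Of 21 tested mitochondrial carrier probe sets, 2 fell and 0 rose (9.52%, against 10.0% of all tested probe sets, so near the background), and the median log2 change was -0.03. Slc25a10, which exchanges malate and succinate for phosphate, read 135.4 and 128.4 in control and 43.7 and 50.8 in transgenic pools. It fell 2.80-fold (log2 change -1.48 ± 0.26, adjusted p = 0.00655), the largest fall among tested carriers, to a level under the brightness needed for testing. It was therefore tested only because of its control level. Its call was kept without any 1 of the 4 pools. Slc25a17, a peroxisomal member of the family that carries coenzyme A and related cofactors, read 499.7 and 511.8 against 345.9 and 185.3. The control pools agreed and the transgenic pools did not, and the gene fell by 0.998 ± 0.25 on the log2 scale (adjusted p = 0.0365). Without transgenic replicate 2 its log2 change was -0.55 and its adjusted p 0.127, and the adjusted p was 0.0519 with a floor at the 40th percentile, 0.0558 with quantile normalization and 0.0527 with a robust prior.

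The other carriers of the family did not pass. The ADP/ATP carrier Slc25a4 read 3544 and 3927.4 against 3429.3 and 4147.9, a log2 change of 0.02 ± 0.12. The glutathione carrier Slc25a39 had -0.01 ± 0.14, Slc25a5, a second ADP/ATP carrier, had -0.03 ± 0.14 at 100618_f_at, and Slc25a25, an ATP and phosphate carrier, had 0.17 ± 0.14. Slc25a11, the oxoglutarate carrier, read 432.2 and 475.5 against 546.7 and 532.4, groups that did not overlap, with a log2 change of 0.25 ± 0.14 (adjusted p = 0.319). The phosphate carrier Slc25a3 read 62.6 and 57.8 in control and 96.7 and 20.8 in transgenic pools. Its transgenic values lay on either side of both controls, and it had the widest gap between pools of a group among tested carriers, 2.22 on the log2 scale.

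Zinc carriers moved both ways. Slc39a1 (ZIP1), which brings zinc into the cytosol, read 470.7 and 418.6 in control and 290 and 259.7 in transgenic pools, a 1.62-fold fall (log2 change -0.69 ± 0.16, adjusted p = 0.0222). Slc39a6 (ZIP6), another importer, read 245.2 and 268.4 against 354.8 and 436.9 and rose 1.53-fold (log2 change 0.62 ± 0.17, adjusted p = 0.0481). Slc30a3 (ZnT3), which loads zinc into glutamatergic vesicles, read 2931.8 and 2661.5 against 2304.1 and 2017.2, with a log2 change of -0.37 ± 0.12 (adjusted p = 0.0805). Slc39a3 had -0.43 ± 0.16 and Slc39a4 0.39 ± 0.16 at 162284_r_at, and neither passed. Another Slc39a4 probe set, 97320_at, was too dim to be tested. It read 54.6 and 41.4 against 40.8 and 37.6, the opposite direction. Of 14 tested zinc and copper probe sets 1 rose and 1 fell (14.3%, against 10.0% of all tested), and the copper importer Slc31a1 had 0.13 ± 0.19 and 0.00 ± 0.19 at its 2 probe sets. A dim second Slc39a1 probe set read 32.7 and 30.7 against 25.6 and 31.

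Without control replicate 1, transgenic replicate 1 or transgenic replicate 2, the adjusted p of Slc39a1 was 0.0893, 0.0634 and 0.123, and that of Slc39a6 was 0.131, 0.0672 and 0.231. The call for Slc39a6 was also lost with quantile normalization (0.0596) and with the floor raised to the 40th percentile (0.0574).

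**Figure D3:**
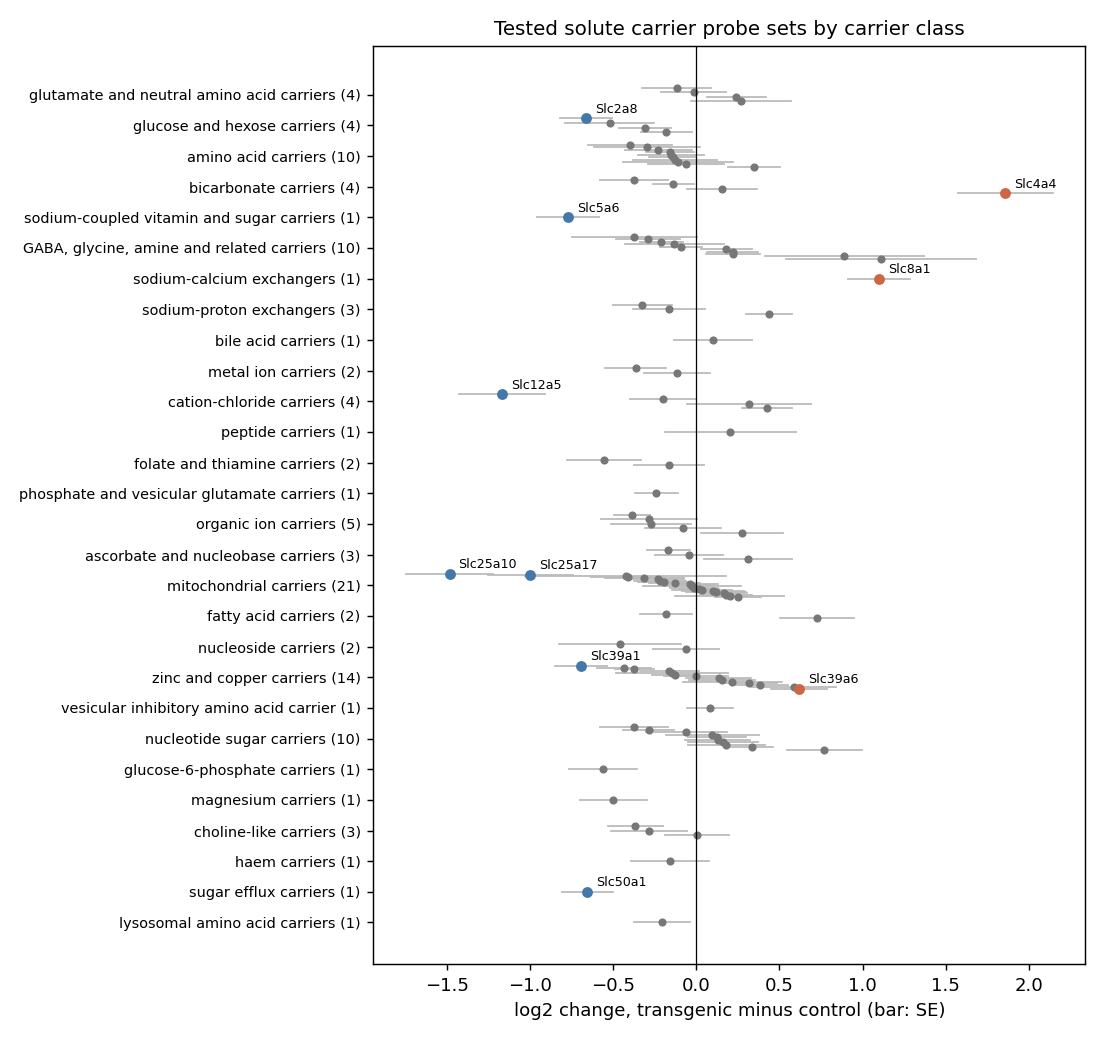
Log2 change (transgenic minus control) of all 114 tested solute carrier probe sets by carrier class, with the number tested in brackets and bars for the SE. Coloured points passed: 3 to the right of 0 (Slc4a4, Slc8a1, Slc39a6) and 7 to the left, while the mitochondrial probe sets other than Slc25a10 and Slc25a17 lie within 0.5 of 0.

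Carriers tied to choline and acetylcholine were of interest because the transgene acts on acetylcholine. The neuronal choline carrier Slc5a7 had no probe set among the carriers taken by name. The vesicular acetylcholine carrier Slc18a3 read 6.1 or less on every array, under the floor. The choline carrier Slc44a1 read 220.2 and 196.9 against 235.5 and 185.2, and its groups overlapped (adjusted p = 0.993). Slc44a2 and Slc44a4 had -0.28 ± 0.23 and -0.37 ± 0.17, and 0 of 3 tested probe sets of this family passed or had an unadjusted p under 0.05.

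Amino acid carriers of the Slc3, Slc7 and Slc38 families gave no call: 0 of 10 tested passed or had an unadjusted p under 0.05 (lowest adjusted p = 0.212). Of their changes 1 lay above 0 and 9 below, beside 54.2% below 0 over all tested probe sets. The counts were the same with median scaling and quantile normalization. The exception was Slc3a2, the heavy chain that brings light chains such as Slc7a5 to the membrane, which read 1175.1 and 1598.1 against 1846.7 and 1642.9 (0.35 ± 0.16). Slc7a5, the carrier of large neutral amino acids, had -0.14 ± 0.14, and Slc38a2, a glutamine carrier, had -0.06 ± 0.23. Without control replicate 2, Slc3a2 passed (adjusted p = 0.0286). Of 10 nucleotide sugar probe sets, whose carriers supply the Golgi and endoplasmic reticulum, 7 had changes above 0 and 3 below, with 0 calls and 2 at an unadjusted p under 0.05. The largest in that class was Slc35g3, which read 120.4 and 90.6 against 193.3 and 164 (0.77 ± 0.23, adjusted p = 0.0633), and it passed without control replicate 1 (0.0212).

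A further pair of carriers came close to the threshold. Slc22a17, a receptor for lipocalin in the organic ion family, read 4760.9 and 4752.2 in control and 3881.1 and 3411.8 in transgenic pools. Its log2 change was -0.39 ± 0.11 (adjusted p = 0.0505), and it passed without transgenic replicate 1 (0.0485), with a filter at the 60th percentile (0.0369), with median scaling (0.0485), with quantile normalization (0.0470), with a robust prior (0.0441) and with an added constant in place of the floor (0.0469). The fatty acid carrier Slc27a1 read 115.3 and 101.6 against 206.3 and 155.2, with a log2 change of 0.73 ± 0.22 (adjusted p = 0.0720). Both sets of groups did not overlap.

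Of the 104 tested carrier probe sets that did not pass, 90 had a 95% interval within 1 log2 unit of 0, and 17 within 0.5. Over tested carriers, log2 changes had a median SE of 0.195, and the median difference between pools of a group was 0.156 in control and 0.203 in transgenic pools on the log2 scale. Changes of less than 2-fold thus remained possible for most carriers that did not pass.

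Agreement between probe sets of a gene could be read for 12 genes with 2 tested probe sets each. Signs matched in 8 and were opposite in 4 (Slc23a3, Slc25a1, Slc25a5 and Slc31a1), and the opposite ones had changes of at most 0.31 in either direction. None of the 12 genes had a probe set that passed. Of the 10 genes that passed, 7 are read by a single probe set and 3 (Slc2a8, Slc8a1 and Slc39a1) have others too dim to be tested, so no call among the carriers was repeated at a second tested probe set.

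**Figure D4:**
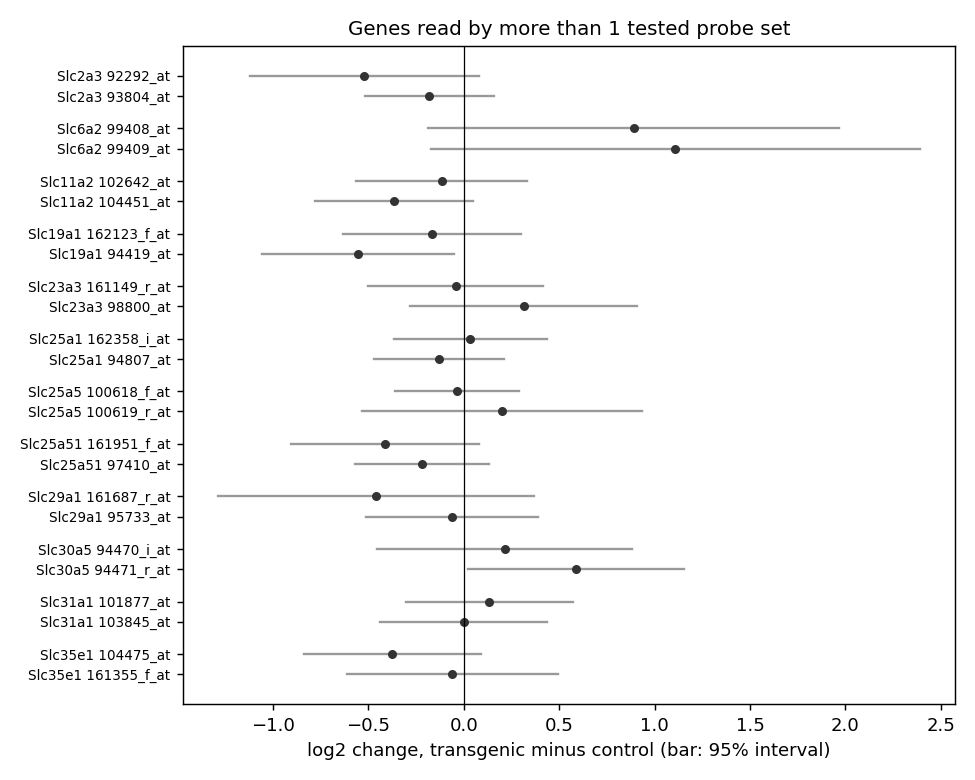
Log2 change (transgenic minus control) with 95% intervals for the 12 solute carrier genes that have 2 tested probe sets. The intervals of the 2 probe sets of a gene overlap in each case, and Slc6a2 has the widest ones, from -0.19 to 1.97 and from -0.17 to 2.39.

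The 71 probe sets that were too dim to be tested included all probe sets of 49 genes, and read 74.6 or less on every array. In 22 of them every array lay at or under the floor. In 9 (12.7%) the groups did not overlap and their means differed more than 3-fold, as in 7.31% of all 4969 dim probe sets. These 9 are given as readings only, since many lie under the floor, where values have no order. The taurine carrier Slc6a6 read 19.3 and 7.1 in control and 51.1 and 46.2 in transgenic pools at 94405_at, while its bright probe set 97383_at read 784.4 and 803.6 against 660.6 and 710.8. The organic anion carrier Slc22a6 read 31.5 and 74.6 against 15.4 and 12.3. Slc2a2 read 20.1 and 20.6 against 1.8 and 9.7, Slc7a6 (99863_at) 15.9 and 21.3 against 2.8 and 3.9, and Slc27a2 2.2 and 5.2 against 27.6 and 12.3. Slc16a7 and Slc27a5 had 1 transgenic pool above the floor each (28.9 and 25.2), and Slc10a1 (100340_at) and Slc38a10 (161710_r_at) had 0 arrays above it. The 3 monocarboxylate carriers of lactate and pyruvate (Slc16a1, Slc16a7 and Slc16a8) were all too dim to be tested.

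Genes that work beside these carriers were read from a list of 46, which holds enzymes of the glutamate and GABA cycle, sodium pump subunits, carbonic anhydrases, kinases of chloride carriers, and glycolytic and mitochondrial pore genes. Of 27 tested, 2 rose and 1 fell (11.1%, against 10.0% of all tested probe sets, so near the background), with a median log2 change of -0.04. The hexokinase Hk1, which traps glucose after entry, read 1008.6 and 1629.8 in control and 2090.4 and 2135.1 in transgenic pools and rose 1.65-fold (adjusted p = 0.0454). The mitochondrial outer membrane pore Vdac2 rose 1.59-fold (adjusted p = 0.0158), and the lactate dehydrogenase Ldha fell 1.35-fold (adjusted p = 0.0327). Glutamine synthetase (Glul), which converts the glutamate that astrocytes take up, had -0.47 ± 0.19 (adjusted p = 0.171). The kinases Wnk1 and Stk39, which regulate Slc12 carriers, had 0.29 ± 0.12 and -0.07 ± 0.17 and did not pass.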

How the data were processed

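Per the labels, each array held pooled prefrontal cortex RNA. The authors' deposited table gives 1 intensity per probe set and array. No header or label names the unit, the tool that made the values or the annotation build, each of them not given in the sources used here. The mean between the 2nd and 98th percentiles was 249.5 to 249.6 in every column, so each array had been scaled before deposit, and no scaling was added. The 66 control probe sets among 12488 were not used. Genes came from the platform annotation, and all 185 carrier probe sets matched a RefSeq gene identifier.

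Intensities under the 25th percentile over all arrays were set to it. Values were then log2-transformed, and probe sets were tested at a mean log2 value above the 40th percentile (an intensity of 49.4). All tested probe sets were fitted with limma 3.58.1 in R 4.3.3 (lmFit, eBayes with an intensity trend, two-sided, 2 residual degrees of freedom), with Benjamini-Hochberg adjustment over all 7453 and a threshold of 0.05. Adjusted p-values and SEs come from this fit unless another setting is named, and folds are ratios of geometric means. The number of arrays limits the precision. The script was tested on simulated data. Lists were read from the brightest probe set of each gene.

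Named were the carriers that passed, all tested probe sets of the families Slc1, Slc2, Slc4, Slc6 and Slc12, every probe set of those genes, dim ones with separate groups and a mean ratio over 3, and the listed partner genes that passed. Other carriers and partner genes named beside them were chosen after their values were seen. The carriers and lists were chosen with earlier results of these data known. Alternatives covered the floor, filter, scaling, variance prior, replicate block, 1 probe set per gene and each array left out.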

Additional observations from a re-analysis of the deposited data

How the results depend on the processing

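Under every alternative in which they were tested, the 10 carrier probe sets that passed kept their direction. With a filter at the 60th percentile only 7 of them were tested, and Slc4a4, Slc12a5 and Slc25a10 were left out as too dim. The calls of the 10 depended more on the setting. Without the filter on dim probe sets 48 probe sets passed in all and 0 carriers did, 0 higher and 0 lower, and Slc4a4 then had an adjusted p of 0.121 and Slc25a10 0.1497. Without the intensity trend 395 passed in all, with 2 carriers higher and 2 lower (Slc4a4, Slc8a1, Slc25a10 and Slc12a5). Leaving out 1 array in turn gave 387 to 745 calls in all, 1 to 5 carriers higher and 1 to 7 lower. Slc4a4 and Slc25a10 passed in each of these 4 fits and were the 2 carriers called without transgenic replicate 2. They are also the 2 called carriers with one group under the brightness needed for testing, and each of these fits has 1 array in a group, taken to vary like the other group. The counts with the floor at the 40th percentile, an added constant in place of the floor, a filter at the 60th percentile, median scaling, quantile normalization, a robust prior or 1 probe set per gene were within 1.5 times the main ones. With a filter at the 60th percentile 300 probe sets were higher and 347 lower, against 407 and 340, and without the trend 272 and 123. Slc25a17 and Slc39a6 did not pass with the floor at the 40th percentile (0.0519 and 0.0574) or with quantile normalization (0.0558 and 0.0596), and Slc25a17 did not with the robust prior (0.0527). With the replicate number as a block, 5 carriers were higher and 9 lower, out of 892 calls, and the 10 carriers were kept, with Slc22a17, Slc27a1, Slc30a3 and Slc35g3 added. The labels do not say that a number is shared between groups, and the deviations of same-numbered pools from their group means correlated at r = 0.0555 across probe sets. The cause of these changes was not tested.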
